A study of Rattus norvegicus with 2 samples.

Results

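The enzymes that cut and trim peptide precursors were followed in cultured cells of the rat carotid body, as the proprotein convertases Pcsk1, Pcsk2 and Pcsk7 and carboxypeptidase E (Cpe). They were chosen by name, as the array rows whose deposited name holds a term for a convertase, furin, carboxypeptidase E or H, or the peptidylglycine amidating enzyme, and 4 of the 1185 genes on the array met that rule. No row name held furin or peptidylglycine, so those enzymes were not analysed here. The tested cultures were kept in chronic hypoxia at 1% oxygen and the comparison cultures in normoxia at 21% oxygen, both for 7 days of culture. Both came from carotid bodies of Sprague Dawley rats, with 16 organs pooled per culture, and both received horse and fetal bovine serum in the medium. RNA was amplified, labelled with 32P and hybridised to Atlas Rat 1.2 nylon membranes, with 3 membranes per condition. The labels do not say whether each membrane had a culture of its own, so p-values reflect how far membranes differ, and that spread may be technical.

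Many peptide hormones, neuropeptides and growth factors are made as larger precursors that are inactive until they are cut. Proprotein convertases cut after pairs or clusters of basic residues. Pcsk1 and Pcsk2 do this in the dense-core granules of neuroendocrine cells, and Pcsk7 is a widely expressed member that acts in the secretory pathway and at the cell surface. Cpe then removes the basic residues left at the end of the cut peptide. The glomus cells of the carotid body, which sense arterial oxygen, are neuroendocrine cells that store transmitters and peptides in dense-core granules.

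The promoters of the members with measurable signal are shown because the cultures differed in oxygen, and hypoxia-inducible factor binds a core of ACGTG or GCGTG. RefSeq promoter sequences of build GRCr8, from 250 bases before to 50 after the gene start, were found for 3 of the 4 genes, and not for Pcsk1. The Pcsk7 window is chr8:55098571-55098870 and the Cpe window is chr16:29796457-29796756, both on the plus strand and written 5′ to 3′ with matches to the core on either strand in capitals.
Pcsk7: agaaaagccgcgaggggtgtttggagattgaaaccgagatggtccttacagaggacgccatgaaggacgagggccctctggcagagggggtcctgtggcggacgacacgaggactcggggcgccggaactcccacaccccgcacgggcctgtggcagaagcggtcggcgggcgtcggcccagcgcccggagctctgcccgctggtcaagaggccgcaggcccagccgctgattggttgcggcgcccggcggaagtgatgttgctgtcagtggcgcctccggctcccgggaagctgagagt
Cpe: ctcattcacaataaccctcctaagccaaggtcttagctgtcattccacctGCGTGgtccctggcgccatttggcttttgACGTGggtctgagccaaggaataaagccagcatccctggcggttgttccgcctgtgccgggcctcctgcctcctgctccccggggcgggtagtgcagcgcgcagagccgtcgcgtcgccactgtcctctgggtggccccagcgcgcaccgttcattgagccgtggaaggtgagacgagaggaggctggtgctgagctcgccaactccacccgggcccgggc
The Cpe window held 1 ACGTG and 1 GCGTG, and the windows of Pcsk7 and Pcsk2 held none of either. Among all 33469 promoter windows of the same length, 19.3% held ACGTG, 29.7% held GCGTG and 41.6% held at least one of them on either strand. CG dinucleotides numbered 30 in the Pcsk7 window, 34 in that of Pcsk2 and 22 in that of Cpe, against a median of 7 over all windows. A match in these letters is not a binding site, and its absence concerns this window alone.

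Intensity is a linear brightness per spot with background included, on a scale that ends at 65535. A spot was called above background where it exceeded its membrane's median by more than 3 background SDs, the SD being the root mean square distance of the dimmer spots from that median. Membrane medians were 1704, 3409 and 16411 on chronic hypoxia membranes 1 to 3 and 2427, 3409 and 2681 on normoxia membranes 1 to 3. By this call 72 to 186 spots per chronic hypoxia membrane and 139 to 205 per normoxia membrane carried signal. Over the 6 membranes 152 genes did so on at least 3 and 49 on all 6. Chronic hypoxia membranes 1 and 3 stood apart as the closest pair across genes (rank correlation 0.772, against 0.267 to 0.580 for the other 14 pairs). The labelled tissue was checked against markers. Of 7 glomus cell markers, Dbh, Slc6a3 and Slc18a3 carried signal on 3 or more membranes, and the other 4, the granule proteins Chga and Scg2 among them, on none. Of markers of other cells, 2 of 6 endothelial, 1 of 6 fibroblast and matrix, 0 of 4 glial and 0 of 5 immune spots reached 3 membranes.

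Of the 4 enzymes, signal was present on every membrane for Pcsk7 and Cpe and on none for Pcsk1 and Pcsk2. The share of bright spots on the array was small: 49 of 1185 genes had signal on all 6 membranes and 867 on none. The brightness of different spots does not rank their transcripts, because each spot has its own probe.

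**Figure D1:**
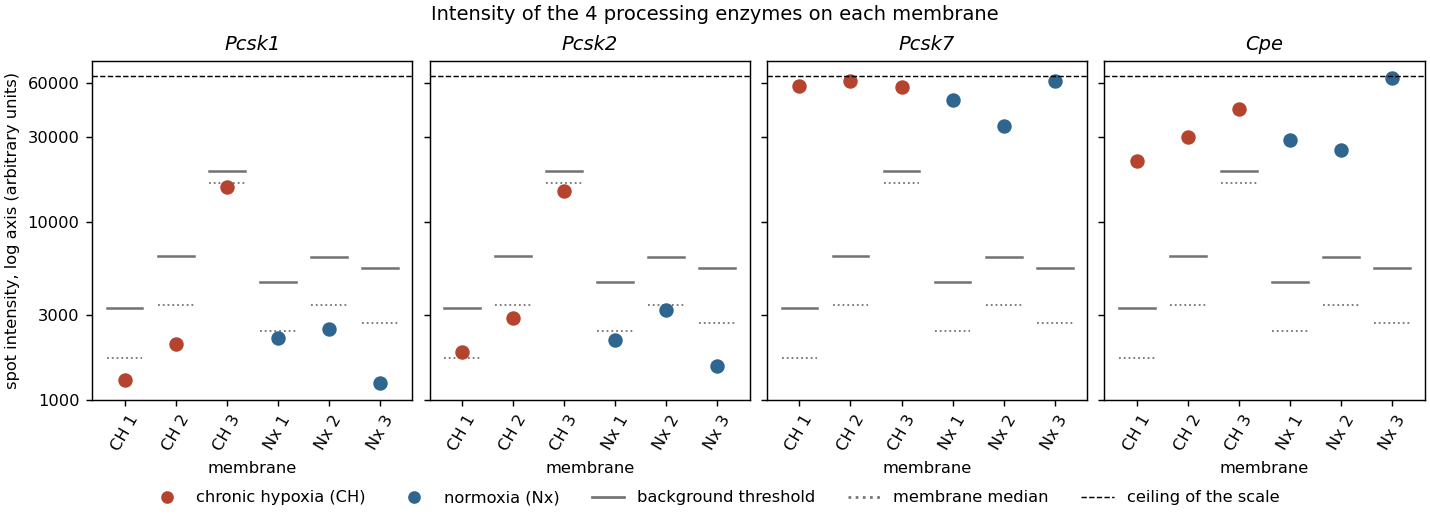
Spot intensity (arbitrary units, log axis) of Pcsk1, Pcsk2, Pcsk7 and Cpe on each membrane, with chronic hypoxia (CH, red) left of normoxia (Nx, blue), the background threshold (solid grey), the membrane median (dotted) and the ceiling of the scale (dashed). Pcsk7 and Cpe lie above the threshold on all 6 membranes, and Pcsk1 and Pcsk2 lie below it on all 6.

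Pcsk1, the granule convertase that makes the first cuts in many prohormones, stayed at background in both conditions. Its intensity was 1287, 2060 and 15683 on chronic hypoxia membranes 1 to 3 and 2214, 2482 and 1236 on normoxia membranes 1 to 3. Each of the 6 values lay below the median of its own membrane, and the high value on chronic hypoxia membrane 3 belongs to a membrane whose dimmest spot was 14591. In background SDs Pcsk1 lay between -1.35 and -0.76 in chronic hypoxia and between -1.56 and -0.30 in normoxia. It did not pass the filter on dim genes and was not tested.

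Pcsk2, the convertase that completes the processing of many neuropeptides, was at background as well. It had 1855, 2887 and 14955 on chronic hypoxia membranes 1 to 3 and 2171, 3203 and 1545 on normoxia membranes 1 to 3. The value of chronic hypoxia membrane 1 was the single one of the 6 above its membrane's median, by 0.29 background SDs. Pcsk2 passed the filter and was tested, without a call (limma adjusted p = 0.972), and no fold is given because neither condition rose above background. A spot at background shows that the transcript was not measurable here, not that it was absent from the cells.

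Pcsk7 was among the brightest spots on every membrane, and brighter on average in chronic hypoxia, by less than the fit could resolve. Its intensity was 57569, 61485 and 56960 on chronic hypoxia membranes 1 to 3, against 48517, 34396 and 61804 on normoxia membranes 1 to 3. With background included, the chronic hypoxia values lay close together. Normoxia held both the lowest and the highest of the 6, so the groups overlapped. Above the membrane median, Pcsk7 was at 55865, 58076 and 40549 on chronic hypoxia membranes 1 to 3 and 46090, 30987 and 59123 on normoxia membranes 1 to 3. Without further scaling, the log2 difference of these values was 0.21 (exact permutation p = 0.7). Counted from the brightest of 1185 spots, Pcsk7 ranked 8, 7 and 10 on the chronic hypoxia membranes and 18, 10 and 18 on the normoxia membranes. The ranks, which no scaling alters, met at 10 on chronic hypoxia membrane 3 and normoxia membrane 2.

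After background correction and quantile normalization, which puts the 6 membranes on a common log2 scale, Pcsk7 averaged 15.63 ± 0.06 in chronic hypoxia and 15.31 ± 0.21 in normoxia (SD, n = 3 each). The log2 difference was 0.31 with an SE of 0.52 and a 95% interval from -0.84 to 1.47, a fold of 1.24 with an interval from 0.559 to 2.77. It was not called (limma adjusted p = 0.881). An exact two-sided permutation test over the 20 assignments of the membranes gave p = 0.2. The smallest p of that test is 0.1 where no values are tied. Chronic hypoxia membrane 3 and normoxia membrane 2 were tied at 15.56, so 0.2 is the smallest p that these values allow. In tissue cultures such as these, fewer cells of a type and less RNA per cell cannot be told apart in a spot's intensity. The SE draws on the spread of all tested genes. After normalization the SD of Pcsk7 within groups was 0.16, against a median of 0.81 over the 152 genes with signal. Quantile normalization gives spots of equal rank equal values, so this SD follows ranks near the top of the scale. With the membrane median subtracted and no further scaling, the SD of log2 intensity was 0.28 in chronic hypoxia and 0.47 in normoxia. On chronic hypoxia membrane 2 and normoxia membrane 3 Pcsk7 lay within 10% of the ceiling of the scale, so these values may be bounded by the scale. With them left out, an alternative chosen after the data were seen, the difference was 0.23.

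Cpe was also bright in both conditions, with a wider spread than Pcsk7. Its intensity was 22056, 29895 and 42767 on chronic hypoxia membranes 1 to 3, against 28763, 25406 and 64383 on normoxia membranes 1 to 3. The value on normoxia membrane 3 stood far above the other normoxia values, lay within 5% of the ceiling and is not exact. Cpe ranked 37, 19 and 33 on the chronic hypoxia membranes and 37, 16 and 14 on the normoxia membranes, so the groups overlapped. Its normalized log2 intensity averaged 14.66 ± 0.45 in chronic hypoxia and 14.99 ± 0.57 in normoxia (SD, n = 3 each). The log2 difference of -0.33, with a 95% interval from -1.61 to 0.95, was not called (limma adjusted p = 0.893, exact permutation p = 0.5). The interval runs from a fold of 0.328 to one of 1.93. Leaving out the value near the ceiling left a difference of -0.15, leaving out normoxia membrane 1 gave -0.67, and leaving out chronic hypoxia membrane 1, normoxia membrane 2 or normoxia membrane 3 gave -0.17, -0.19 and -0.17.

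No member was called of the 3 tested, and no gene on the array was, so the share called among all 1038 tested genes was 0.00%. The lowest adjusted p in limma was 0.630, and 75 of the 1038 genes fell under 0.05 before adjustment. None of the 4 members had groups that did not overlap, against 13.9% of the tested genes. Among the 152 genes with signal, 100 had a larger absolute difference than Pcsk7 and 97 a larger one than Cpe, with a median absolute difference of 0.51.

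**Figure D2:**
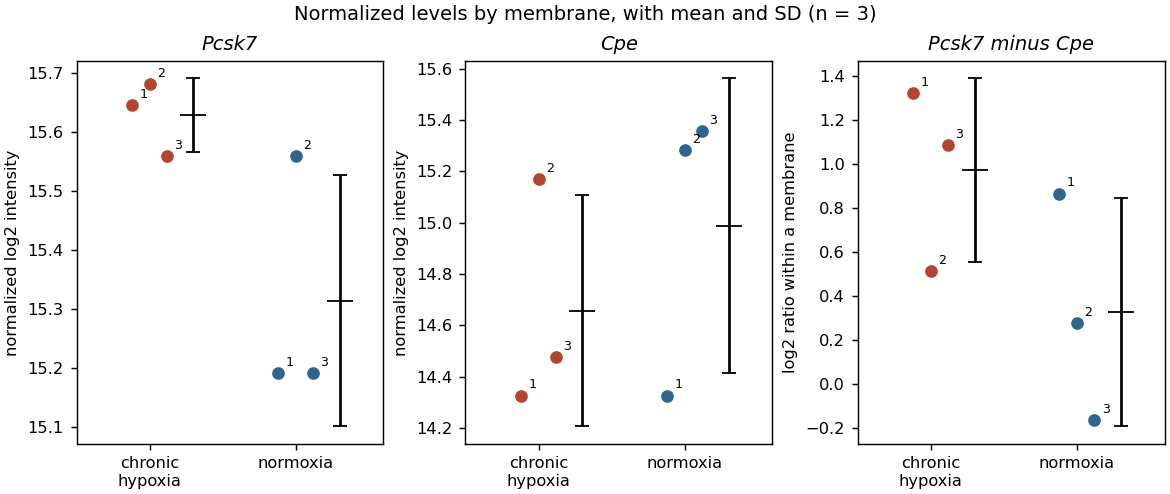
Normalized log2 intensity of Pcsk7 and Cpe, and the log2 ratio of Pcsk7 to Cpe within each membrane, with chronic hypoxia left of normoxia, the membrane number beside each point, and the mean and SD of 3 membranes beside each group. Pcsk7 averages 15.63 in chronic hypoxia and 15.31 in normoxia, Cpe 14.66 and 14.99, and in each panel the groups touch or overlap.

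Pcsk7 and Cpe differed in opposite directions, and their ratio within a membrane, a comparison chosen after the values were seen, removes any factor that scales a whole membrane. After the membrane median was subtracted, the intensity of Pcsk7 over that of Cpe was 2.74, 2.19 and 1.54 on chronic hypoxia membranes 1 to 3, against 1.75, 1.41 and 0.958 on normoxia membranes 1 to 3. The 2 highest ratios were in chronic hypoxia and the 2 lowest in normoxia, with the remaining pair overlapping. On the normalized log2 scale the ratio averaged 0.97 ± 0.42 in chronic hypoxia and 0.33 ± 0.52 in normoxia (SD, n = 3 each), a difference of 0.65 (exact permutation p = 0.2, smallest possible 0.1). The lowest ratio came from normoxia membrane 3, where Cpe was near the ceiling. Over the 6 membranes the 2 genes had a Pearson correlation of -0.03, given as a description over membranes that share 2 conditions and 1 normalization.

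The 2 bright spots sat in different surroundings. Position codes give each spot a quadrant, a column and a letter, and spots next to each other by code were taken as adjacent. All 8 spots adjacent to Pcsk7 were above background on at least 3 membranes, which held for the full surroundings of 15 of 1176 spots, while 0 of the 8 adjacent to Cpe were. Pcsk7 lies in quadrant C, column 11. In columns 9 to 11 of that quadrant, a block with Pcsk7 at its edge, 40 of 42 spots (95.2%) carried signal on at least 3 membranes. The share was 26 of 154 (16.9%) in its other columns and 152 of 1185 on the whole array. For a member's own column and the column on each side, it was 33 of 42 (78.6%) for Pcsk7 and 13 of 42 (31.0%) for Cpe. The 8 spots next to Pcsk7 are uricase, ceruloplasmin, carbonic anhydrase III, the protein disulfide isomerase relative ERP72, a ribosomal protein of each subunit, and the translation factors EIF-5 and EF2. Brightness shared by a place and transcripts that are each abundant there cannot be told apart by position.

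**Figure D3:**
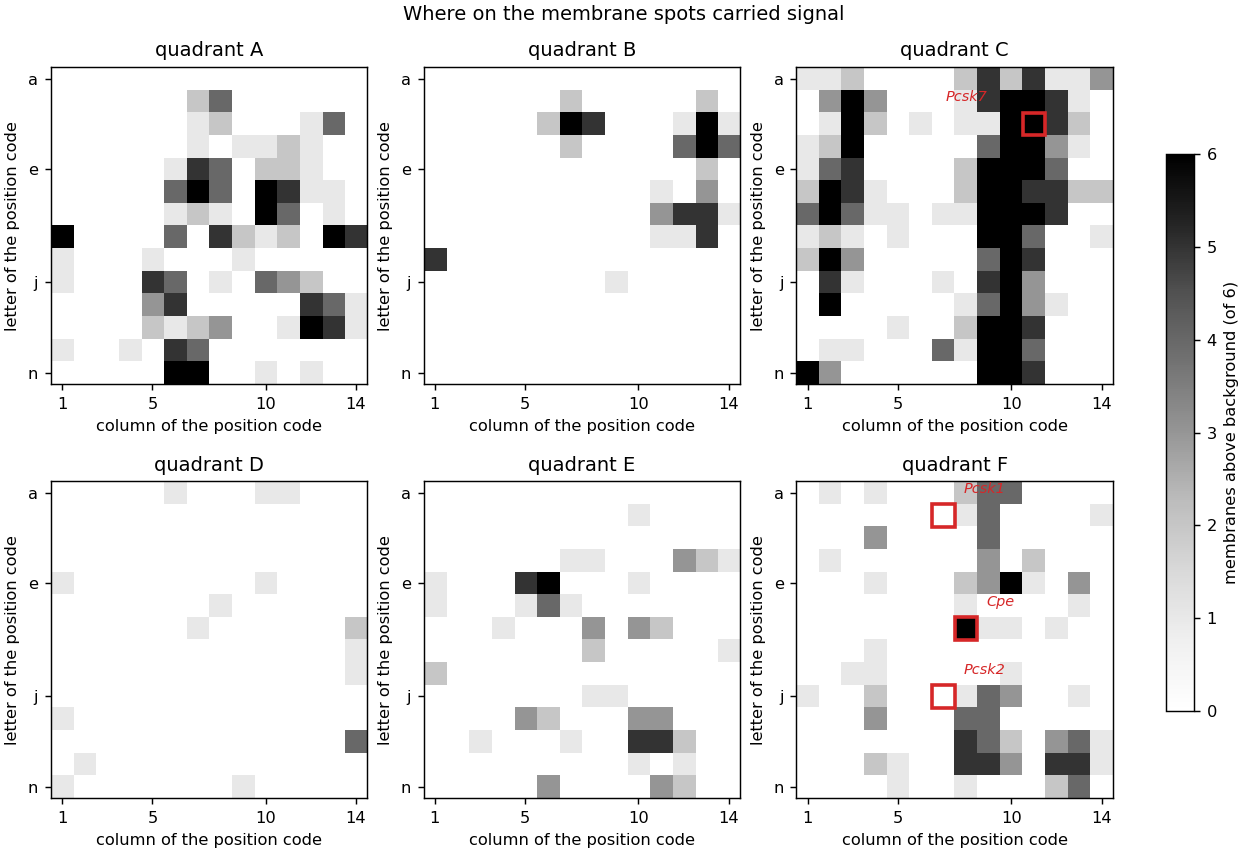
Number of membranes (of 6) on which each spot was above background, drawn by the column and letter of its position code in quadrants A to F, with the 4 processing enzymes outlined in red. Pcsk7 lies at the edge of the filled columns 9 to 11 of quadrant C (40 of 42 spots with signal on at least 3 membranes). No spot adjacent to Cpe had signal on at least 3 membranes.

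Beside Pcsk7, the spot of Rps3a, a protein of the small ribosomal subunit, chosen after the values were seen, had 14112, 5582 and 38331 on chronic hypoxia membranes 1 to 3 and 55563, 36110 and 63789 on normoxia membranes 1 to 3. Of the 8 adjacent spots 6 were lower in chronic hypoxia, with log2 differences from -1.95 to 0.39 and a median of -0.60. Taking the median of the adjacent spots as background, chosen after the data were seen, left Pcsk7 at 43618, 53729 and 23131 on chronic hypoxia membranes 1 to 3, against 17673, 17248 and 23117 on normoxia membranes 1 to 3. The groups then did not overlap, by a margin of a few units between membrane 3 of each condition, and groups apart in this direction were seen for 6.03% of 1029 genes treated alike, and for 4 of the 148 among them with signal on at least 3 membranes. On that scale, with no scaling between membranes, the log2 difference of Pcsk7 was 0.98 (exact permutation p = 0.1, the smallest possible). With the membrane median as background, also without scaling, it was 0.21, and the normalized value was 0.31. The value of 0.98 includes the lower values of the neighbours in chronic hypoxia. Whether light from adjacent spots enters the Pcsk7 value was not tested. For Cpe the same subtraction gave -0.41.

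**Figure D4:**
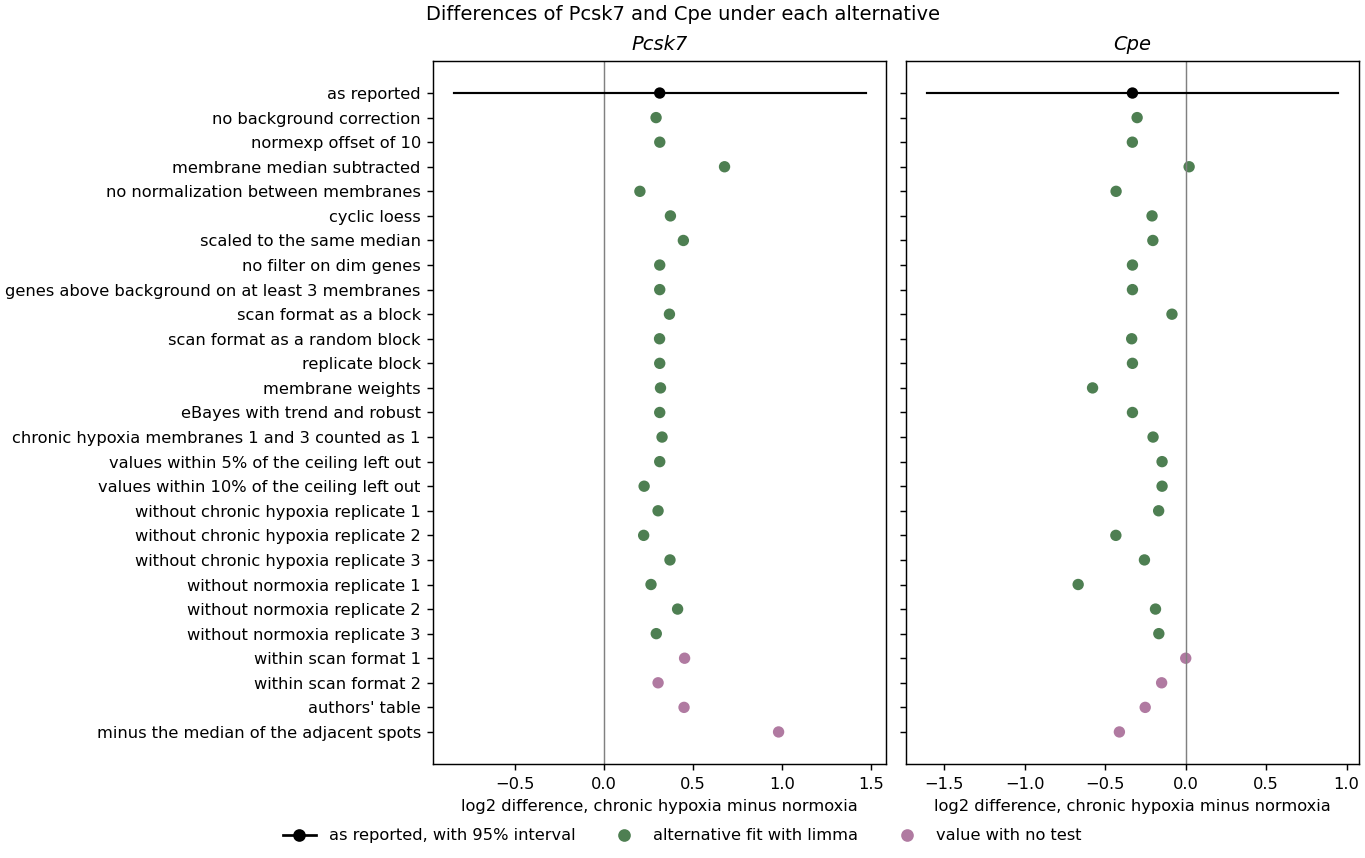
Log2 difference between chronic hypoxia and normoxia for Pcsk7 and Cpe (horizontal axis, positive where chronic hypoxia is higher) under each processing alternative (rows), with the reported value and its 95% interval in black. Pcsk7 stays above 0 in all 26 alternatives, from 0.20 to 0.98, and Cpe runs from -0.67 to 0.021. Alternatives that change only the filter, the replicate block or the eBayes settings leave both values as reported.

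The authors' deposited table, which holds 1 averaged and normalized intensity per gene and condition, gave the same direction for both bright members. In the authors' deposited table Pcsk7 had 59336 in chronic hypoxia and 43412 in normoxia, a ratio of 1.37. Cpe had 28630 in chronic hypoxia and 34092 in normoxia in the authors' deposited table, a ratio of 0.840. Pcsk1 and Pcsk2 were listed at 0 in both conditions in the authors' deposited table, as were 861 of its 1185 genes.

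The labels name no batch, but deposited intensities move in fixed steps whose size differs between membranes, and membranes were grouped by that step into what are called scan formats here. The first holds chronic hypoxia membrane 1 and normoxia membrane 1, and the second chronic hypoxia membrane 2 and normoxia membranes 2 and 3. The step of chronic hypoxia membrane 3 was less clear, and that membrane was treated as a format of its own, so that it adds nothing to a blocked difference. The Pcsk7 difference was 0.45 in the first format, 0.31 in the second and 0.37 in a fit that blocked on format. For Cpe the same values were 0.00, -0.15 and -0.09, each smaller in size than the -0.33 over all membranes. The blocked values rest on the place given to chronic hypoxia membrane 3.

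Other genes of the pathway were read from lists of granule proteins, peptide precursors, textbook substrates of the furin family and other peptidases. None of their tested members was called, in either direction, in limma. All 4 granule proteins, which are chromogranin A (Chga), the secretogranins Scg2 and Scg3, and the Pcsk2 chaperone 7B2 (Scg5), were above background on no membrane. Of 25 peptide precursors 2 had signal on at least 3 membranes and 21 on none. The median log2 difference of the 20 tested precursors was 0.36, beside 0.03 over all tested genes, and since most of these spots were at background no direction is read from it.

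Gip, the precursor of gastric inhibitory polypeptide, which Pcsk1 cuts in the mouse gut, was the one precursor above background on all 6 membranes. It had 21645, 9403 and 38583 on chronic hypoxia membranes 1 to 3, against 30897, 19587 and 62906 on normoxia membranes 1 to 3. Its normalized log2 intensity averaged 14.23 ± 0.13 in chronic hypoxia and 14.80 ± 0.41 in normoxia (SD, n = 3 each). The difference was -0.58 with an SE of 0.54 (limma adjusted p = 0.816), and normoxia membrane 3 was within 5% of the ceiling. The other precursor with signal, Edn1, which gives endothelin-1, had it on 2 chronic hypoxia membranes and 1 normoxia membrane. Its intensity was 3309, 4024 and 21187 on chronic hypoxia membranes 1 to 3 and 3927, 2987 and 11395 on normoxia membranes 1 to 3. The log2 difference of Edn1 was 0.42 with an SE of 0.70 (limma adjusted p = 0.885). In the authors' deposited table Gip had 11487 in chronic hypoxia and 31822 in normoxia. Edn1 was listed there at 0 in chronic hypoxia and had 2518 in normoxia, the opposite direction to the fit.

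Of 16 other peptidases, 6 had signal on at least 3 membranes and none on all 6. They were Ece1, which makes active endothelin, the insulin-regulated aminopeptidase Lnpep and the cathepsins Ctsc, Ctse, Ctsh and Ctsk. These 4 cathepsins differed by 0.29 (Ctsc, SE 0.79), 0.20 (Ctse, SE 0.58), 0.40 (Ctsh, SE 0.78) and 0.66 (Ctsk, SE 0.62). Among the other cathepsins of the list, Ctsb, Ctsl and Ctss were lower in chronic hypoxia and Ctsd higher. Each had signal on at most 1 membrane, so no direction is read from them. Lnpep differed by -0.63 (SE 0.89) and Ece1 by -1.73 (SE 0.76), and Ece1 was near the ceiling on 2 normoxia membranes. The smallest limma adjusted p among the 6 was 0.645. The authors' deposited table ran the other way for 3 of the 4 cathepsins, with 5036 for Ctsc, 1274 for Ctsh and 2600 for Ctsk in chronic hypoxia against 5230, 4809 and 3172 in normoxia. In the authors' deposited table Ctse had 4811 in chronic hypoxia and 3502 in normoxia, and Ece1 and Lnpep were lower in chronic hypoxia as in the fit. Carboxypeptidase D (Cpd), which also trims basic residues, was above background on no membrane.

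**Figure D5:**
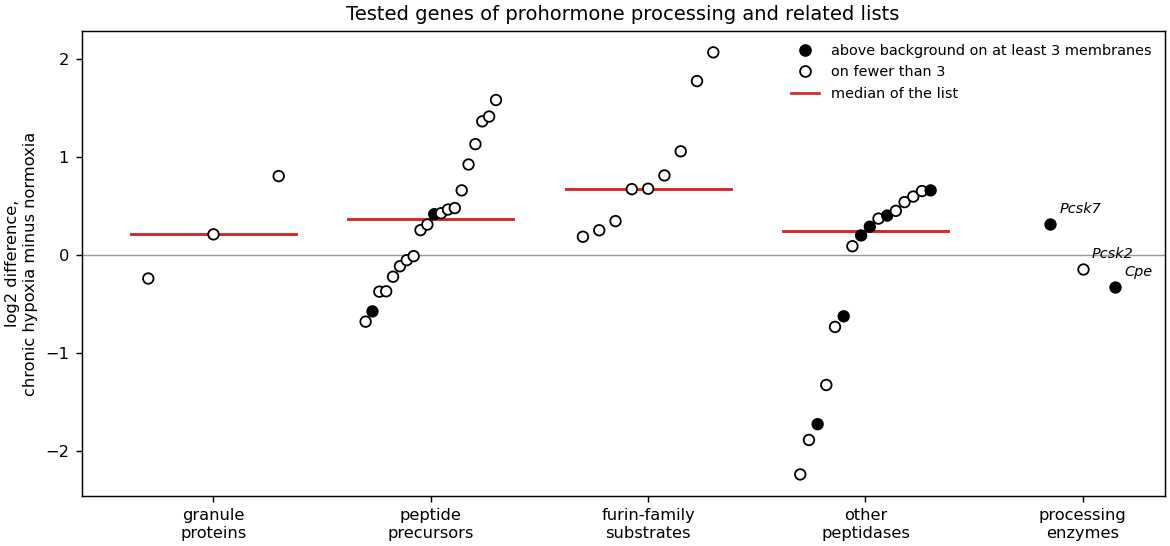
Log2 difference between chronic hypoxia and normoxia (vertical axis) for each tested gene of 4 lists and for the 3 tested processing enzymes, with filled points for genes above background on at least 3 membranes and red lines at list medians. Filled points are 2 peptide precursors, 6 other peptidases, Pcsk7 and Cpe, and open points, among them every furin-family substrate, are spots with little or no signal.

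Furin-family substrates, growth factors and receptors such as Tgfb1, Igf1 and the insulin receptor Insr, had no spot with signal on 3 or more membranes, among 11 on the array. None of the 9 tested was called. Their median log2 difference of 0.68, beside 0.03 over all tested genes, is one between values at background, and no direction is read from it. Of the 9, 5 lie in columns 14 of quadrant D and 1 and 2 of quadrant E, where the 25 other tested genes had a median of 0.65. The part of position in the list's values was not tested.

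The genes most like each bright member were taken from the other 151 genes with signal, by Pearson correlation of normalized log2 intensity over the 6 membranes. For Pcsk7 they were very long chain acyl-CoA dehydrogenase (0.85), ceruloplasmin (0.84) and GABA transaminase (0.81). For Cpe they were arginase 2 (0.96), fucosyltransferase 2 (0.95) and glutathione synthetase (0.94). All 6 lie in quadrant C, which holds 66 of the 152 genes with signal, and ceruloplasmin is adjacent to Pcsk7. The membranes share 2 conditions and 3 scan formats, and correlations over so few points are descriptions.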

How the data were processed

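Per the labels' design text, membranes were imaged on a phosphorimager and quantified with AtlasImage 2.0. The deposited membrane values are linear intensities of 1 spot per gene, not normalized between membranes, and no background column was used here. The authors' table holds 1 intensity per gene and condition, averaged over 3 membranes and normalized with a coefficient based on the mean signal of all genes, per the labels. Here, the membrane intensities were background corrected with normexp (offset 50), put on a log2 scale and quantile normalized together. Genes brighter than the 25th percentile of the membrane in 3 or more of the 6 were tested (1038 of 1185) with lmFit and eBayes in limma 3.58.1 (R 4.3.3), group as the only term, Benjamini-Hochberg adjustment over all tested genes and calls at an adjusted p under 0.05. The script was tested on simulated data with changes far larger than the differences of the members. That test does not show that changes of their size could be found. Other software was Python 3.11.15, numpy 2.4.6, pandas 2.3.3 and matplotlib 3.10.9. The number of membranes limits precision.

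The members, lists and tests were chosen with earlier results of these data known. Named with values, by rule, are the members, list members with signal on at least 3 membranes and the 3 genes most like each bright member. Other list genes and markers are named for their detection or as examples, and Rps3a was chosen after its values were seen. Symbols were assigned by hand from deposited names, and 84 of 85 were found in the RefSeq gene table of GRCr8. Alternatives covered background correction, normalization, filters, scan format, membrane weights, the ceiling, the membrane number as a block and leaving out each membrane.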

Additional observations from a re-analysis of the deposited data

How the results depend on the processing

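No member and no gene was called in limma under any of the 22 alternative fits, and the lowest adjusted p over them was 0.784 for Pcsk7, 0.621 for Cpe and 0.891 for Pcsk2 in the fits that held it. Unadjusted p-values under 0.05 numbered 75 as reported, and 35 with the membrane median subtracted, 146 with membrane weights, 10 among the 152 genes with signal, 46 with chronic hypoxia membranes 1 and 3 counted as 1, and 43 without chronic hypoxia membrane 3. The Pcsk7 difference was positive in all 26 alternatives, from 0.20 to 0.98, and from 0.22 to 0.41 when each membrane was left out in turn. Some of the 26 could not move it and gave 0.31 again. These were the changes of filter, the replicate block, the eBayes settings and the 5% ceiling, within which no Pcsk7 value lay. The Cpe difference ran from -0.67 to -0.17 when each membrane was left out. With the membrane median subtracted, Cpe was at 0.021 and Pcsk7 at 0.68, and the median over all tested genes was 0.35. That scaling was centred on the 49 genes with signal on all 6 membranes, not on all tested genes. Without normalization the median over all tested genes was -0.17, Cpe was at -0.43 and Pcsk7 at 0.20. The difference of the 2 log2 differences, Pcsk7 minus Cpe, lay between 0.37 and 0.93. With the membrane number as a replicate block Pcsk7 was at 0.31 and Cpe at -0.33 with 0 genes called, and the block changed no other call. Same-numbered membranes deviated from their group means with correlations of 0.09, 0.11 and 0.024, against -0.12 to 0.03 for membranes of different numbers. All of these were small, and the numbers were not taken as pairs. The count of members above background on all membranes was 2 at thresholds of 2, 3 and 5 background SDs, and with the median of the adjacent spots as background. That last call kept the background SD of the whole membrane, not the spread of the adjacent spots. Pcsk7 was brighter than every adjacent spot on 2 of 3 chronic hypoxia membranes and 0 of 3 normoxia membranes. Cpe was so on 3 of 3 in each condition. The precision is limited by 3 membranes per group, and the 95% intervals run from a fold of 0.559 to 2.77 for Pcsk7 and from 0.328 to 1.93 for Cpe.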
